A study of Arabidopsis thaliana with 20 samples.

Results

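The 10 genes described here carry a root hair from the choice of its site to tip growth: RHD6, RSL1, RSL2, RSL4, RHD2, EXPA7, EXPA18, LRX1, LRX2 and COBL9. They were taken by gene identifier from a deposited table of 33201 genes, and all 10 have a row. The rule uses no threshold on measured values, but the list was drawn up with earlier results of these data known. All 10 also passed the filter for testing, at least 1 FPKM in at least 2 libraries, as did 22335 genes in all. FPKM is a level per length: sequenced fragments divided by transcript length and by the library's mapped fragments.

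The study followed the Arabidopsis thaliana root tip in seedlings of the ecotype Col-0 with the transgene PET111:GFP, whose GFP marks columella cells of the root cap. Root pieces carry 1 of 2 zone labels, meristematic (MZ) or elongation (EZ). They were taken at 3, 4, 5, 6 and 7 days of age, and protoplasts without GFP were sorted for RNA sequencing. Each zone and age has 2 biological replicates, giving 10 groups and 20 libraries, 10 for each zone label. Every group has the same genotype, ecotype, reporter and growth medium with sucrose, and no treatment or mutant is compared. The sort left out the GFP-positive columella cells only. The labels do not say how many seedlings were pooled.

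Root hairs are tubes that grow out of single epidermal cells, the trichoblasts, which lie over the junction of cortical cells. RHD6 and RSL1 are basic helix-loop-helix transcription factors that act first, giving the cell its hair identity and starting the bulge. They act through RSL2 and RSL4, relatives that promote growth of the hair. Growth then needs reactive oxygen made at the tip by the NADPH oxidase RHD2, wall loosening by expansins such as EXPA7 and EXPA18, and wall proteins such as LRX1, LRX2 and COBL9. Visible hairs emerge as cells leave the elongation zone, above the meristem.

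In the annotation of the reference genome, TAIR10.1, 6 of the 10 genes lie on chromosome 1. These are RHD6 at chr1:24795214-24797015, RSL4 at chr1:9654475-9656089, EXPA7 at chr1:4276505-4277969, EXPA18 at chr1:23331563-23333246, LRX1 at chr1:4069992-4072681 and LRX2 at chr1:23112933-23115293, all on the + strand. RSL1 lies at chr5:15036066-15037884 on the + strand, and RHD2 at chr5:20757199-20762461 and COBL9 at chr5:19971884-19974530 on the - strand. RSL2 lies at chr4:16239363-16241169 on the - strand. Each has 1 annotated transcript, from 1117 bp for EXPA7 to 3289 bp for RHD2. At most 1.41% of the 32-base words of any of these transcripts were found in the longest transcript of another gene. EXPA7 overlaps AT1G12570 and EXPA18 overlaps AT1G62978, both on the opposite strand, and strand use in counting is not given in the sources used here. The highest level of AT1G12570 in a library was 1.01 FPKM, and AT1G62978 was listed at 0 throughout.

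The promoters of the 2 expansin genes and of the 2 LRX genes are shown because each pair has related products but the members of a pair differ in the data below or in a known element. The root hair element is a short sequence described from promoters of root hair genes, EXPA7 and EXPA18 among them, so its presence there is no independent result. A search of both strands, from 250 bases before to 50 bases after the annotated start, found the element in 3 of the 10 genes, EXPA7, EXPA18 and LRX1. It was found in 238 of 27443 promoters of the genome searched the same way, or 0.867%. The sequences are those of TAIR10.1, 250 bases up to the base before the annotated start, written 5′ to 3′ along the gene, with the element in capitals.
EXPA7, chr1:4276255-4276504, + strand: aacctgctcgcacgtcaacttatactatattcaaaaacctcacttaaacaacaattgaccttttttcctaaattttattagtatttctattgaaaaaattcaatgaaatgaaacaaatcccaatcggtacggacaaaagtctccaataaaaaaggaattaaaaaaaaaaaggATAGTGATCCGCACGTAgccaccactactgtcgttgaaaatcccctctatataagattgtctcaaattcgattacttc
EXPA18, chr1:23331313-23331562, + strand: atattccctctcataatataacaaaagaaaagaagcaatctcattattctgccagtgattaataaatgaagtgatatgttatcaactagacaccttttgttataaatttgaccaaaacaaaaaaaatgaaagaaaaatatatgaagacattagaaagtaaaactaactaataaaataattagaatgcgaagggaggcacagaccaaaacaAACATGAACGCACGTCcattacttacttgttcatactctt
LRX1, chr1:4069742-4069991, + strand: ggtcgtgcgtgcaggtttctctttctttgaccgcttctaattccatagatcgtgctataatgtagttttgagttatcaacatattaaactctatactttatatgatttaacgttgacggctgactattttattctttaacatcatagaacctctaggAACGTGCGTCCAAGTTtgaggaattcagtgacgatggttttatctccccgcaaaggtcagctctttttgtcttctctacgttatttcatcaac
LRX2, chr1:23112683-23112932, + strand: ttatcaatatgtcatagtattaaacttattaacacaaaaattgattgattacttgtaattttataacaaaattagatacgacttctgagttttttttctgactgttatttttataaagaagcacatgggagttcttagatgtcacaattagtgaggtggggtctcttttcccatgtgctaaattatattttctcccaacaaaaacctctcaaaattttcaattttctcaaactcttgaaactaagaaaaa

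In EXPA7 the element began 78 bases before the start, in EXPA18 40 bases before it, and in LRX1 93 bases before it on the other strand. EXPA18 held another element just inside the transcript. No match was found in this window of LRX2, which says only that these letters are absent from it. Read in their own direction, the 4 matches compare as follows, with the core in capitals.
EXPA7, before the start: atagTGATCCGCACGta
EXPA18, before the start: aacaTGAACGCACGtc
EXPA18, after the start: atagTGTTTCTCACGtt
LRX1, before the start, other strand: aactTGGACGCACGtt
The core was searched on both strands as TG, any 3 or 4 bases, and then GCACG or TCACG, and it lies inside the element by construction. It was present in 4 of the 10 genes, COBL9 being the fourth, and in 4.94% of all promoters. Of the wider list of 53 root hair genes described further on, PRP1, PRP3 and PERK13 held the full element, or 5.66%. The element was described from root hair genes, so this share is no independent result either. A match is a description of the letters and not evidence of binding.

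Before the results, 2 facts about the libraries are needed. EZ libraries had more RNA of dividing-cell markers: 7 of 8 passed the test as higher, and their summed level was 20.4 to 68.3 FPKM in MZ and 65.7 to 227 FPKM in EZ libraries. PCNA1, a clamp that holds DNA polymerase on its template, averaged 9.42 ± 5.27 FPKM in MZ and 39.2 ± 15.8 FPKM in EZ libraries (SD, n = 10 each). The zone names would place dividing cells in MZ, the other way round. Groups are therefore called by their labels, and no direction below should be read as one along the root. The library EZ day 7 replicate 2 was most like an MZ library, with r = 0.922 across genes to MZ day 6 replicate 2, while each of the other 19 was most like a library of its own label. EZ day 6 replicate 2 had the lowest median likeness to its own label, r = 0.871. Depth, estimated from the steps between low FPKM values, was 4.13 to 24.2 M fragments in MZ and 12.8 to 49.8 M fragments in EZ libraries (M, mega).

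The 10 genes spanned a wide range of levels. EXPA18 was the most abundant at a mean of 156 FPKM over the 20 libraries, the 95.6th percentile of the genes tested. LRX1 followed at 67.3, EXPA7 at 64.1, LRX2 at 49.7 and COBL9 at 42.5 FPKM. RHD2 averaged 32.7 FPKM, RSL4 22.2 and RHD6 20.7. RSL2 at 4.78 and RSL1 at 2.98 FPKM were the scarcest. The wall genes thus stood above the oxidase, and the oxidase above the 4 transcription factors, in mean level per length.

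**Figure D1:**
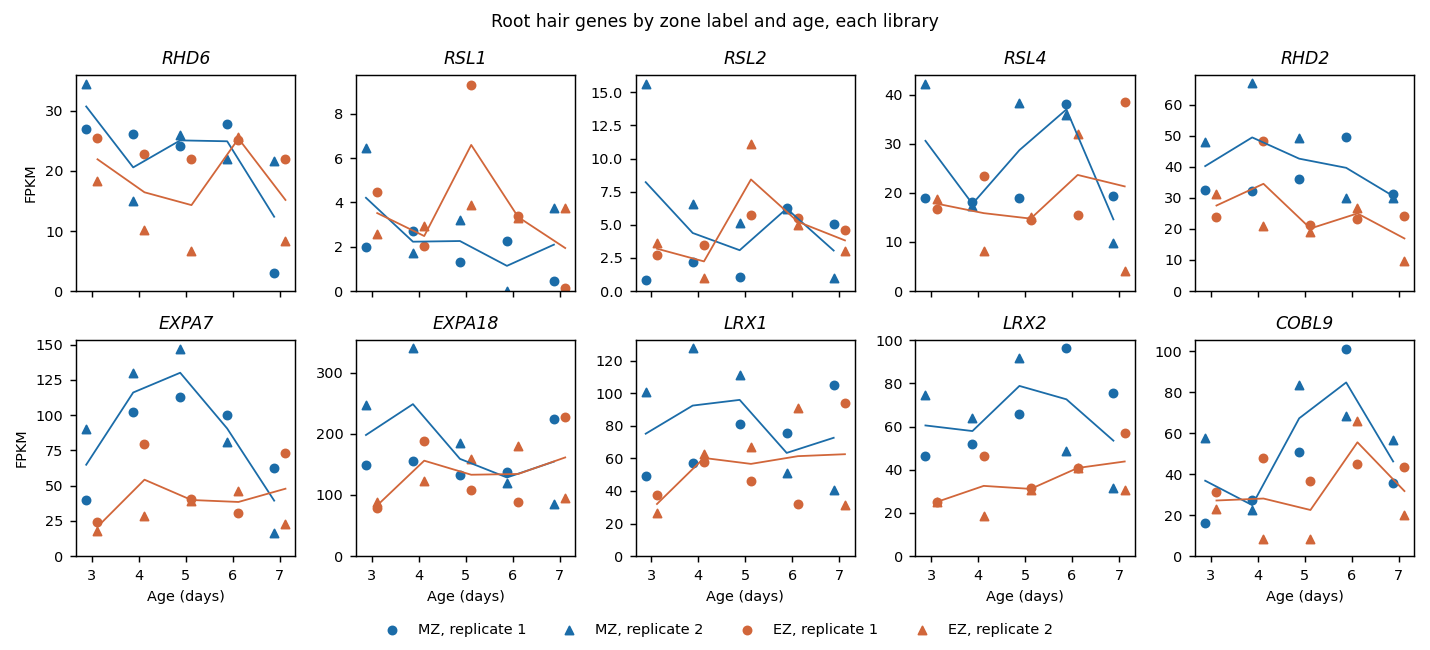
Level in FPKM (vertical axis, linear, a scale for each gene) against age in days for each of the 10 genes, with 1 point per library, circles for replicate 1 and triangles for replicate 2, and lines through the group means. MZ points of EXPA7 lie above EZ points at days 3 to 6 and mix with them at day 7, and RSL1 and RSL2 stay under 16 FPKM throughout.

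Over the 5 ages, 3 of the 10 genes differed between the zone labels, EXPA7, LRX2 and RHD2, and all 3 were lower in libraries labelled EZ. None was higher. Of all genes tested, 7.77% were called lower and 20.6% higher. With quantile normalisation these shares were 12.6% and 12.5%, and with median-of-ratios scaling 12.4% and 17.2%, while the count of root hair genes called lower stayed at 3. The share of 3 in 10 was not tested against the background. Calls are adjusted p under 0.05 by limma on log2(FPKM + 1), with Benjamini-Hochberg adjustment over all 22335 genes. The median difference of the 10 genes, EZ minus MZ, was -0.54 on that scale, beside 0.15 for all genes tested. In 8 of the 10 the difference was negative, with positive values for RSL1 and RSL2. The value of RSL2 turned negative under both other scalings of the libraries. Quantile normalisation moved the median of all genes from 0.15 to -0.06. Relative to the median of all genes the median of the 10 was -0.69 as deposited, -0.55 on quantile-normalised values and -0.74 with median-of-ratios scaling. In these sorted bulk samples fewer cells of a type and less RNA per cell cannot be told apart.

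Some markers of other cells moved with the labels too. Root cap markers were lower in EZ libraries for 3 of 4 genes, beside 7.77% of all genes tested. Their sums were 476 to 1670 FPKM in MZ and 198 to 1030 FPKM in EZ. SMB, the remaining root cap marker, had a positive difference of 0.41 ± 0.25 (SE) and did not pass. Markers of hairless epidermis, GL2 and WER, passed in neither direction, with sums of 16.1 to 78.2 FPKM in MZ and 19.4 to 74.5 FPKM in EZ. Of the endodermal markers 1 of 3 was higher in EZ libraries, SCR, beside 20.6% of all genes tested. CASP1 and CASP2 had negative differences, -0.49 and -0.53, and did not pass. The endodermal sums overlapped, 215 to 1080 FPKM in MZ and 8.61 to 1530 FPKM in EZ. None of 3 xylem, 2 phloem or 1 cortex markers passed, with sums of 6.3 to 420 FPKM against 2.24 to 255 FPKM for xylem and 4.49 to 45 FPKM against 2.74 to 44.6 FPKM for phloem, MZ first. The cortex marker, AT1G62500, was listed at 0 in 7 libraries and reached 2.76 FPKM in MZ and 6.27 FPKM in EZ. The part of these cell types and of depth in the differences of the root hair genes was not tested.

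**Figure D2:**
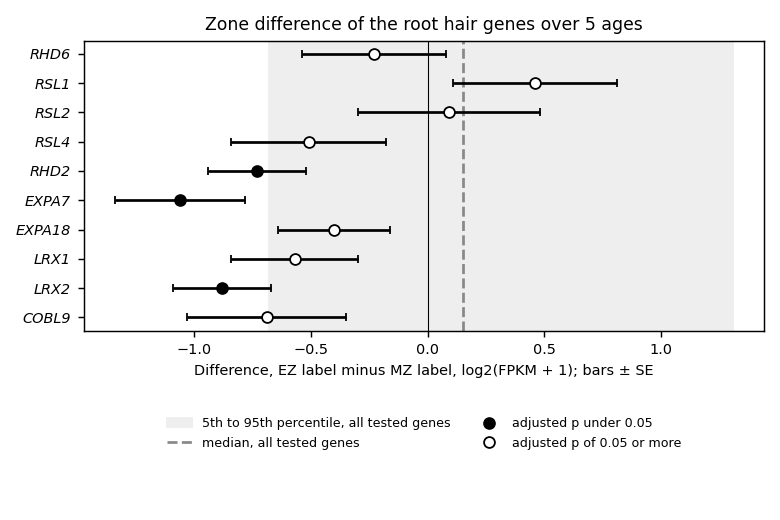
Difference between zone labels (EZ minus MZ, log2(FPKM + 1), horizontal axis) for each of the 10 genes, with bars of ± 1 SE from the fit to 20 libraries. Filled points, EXPA7, LRX2 and RHD2, have an adjusted p under 0.05. The shaded band runs from the 5th to the 95th percentile of all tested genes, -0.68 to 1.31, and the dashed line is their median, 0.15.

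Among the transcription factors that start hairs, RHD6 (AT1G66470) ranged from 3.06 to 34.5 FPKM in MZ libraries, with a median of 25.1. In EZ libraries it ranged from 6.63 to 25.7 FPKM, with a median of 22.0. The ranges overlapped, 5 MZ libraries lay above every EZ library and 1 lay below, and the difference was -0.23 ± 0.31 (SE, adjusted p = 0.611, limma). Leaving out MZ day 7 replicate 2 took this difference to 0.01, and leaving out replicate 1 of that group, at 3.06 FPKM, took it to -0.48. RSL1 (AT5G37800), which acts alongside RHD6, was the scarcest of the 10: 0 to 6.43 FPKM in MZ, median 2.12, with 1 library listed at 0, and 0.138 to 9.30 FPKM in EZ, median 3.33. The groups overlapped and its difference of 0.46 ± 0.35 did not pass (adjusted p = 0.346, limma).

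Of the growth regulators, RSL2 (AT4G33880) was found at 0.830 to 15.6 FPKM in MZ libraries, median 5.10, and at 1.02 to 11.1 FPKM in EZ libraries, median 4.12. Its 2 replicates of MZ day 3 were the lowest and the highest of all 20 libraries, and its difference was 0.09 ± 0.39 (adjusted p = 0.886, limma). RSL4 (AT1G27740), known to set how long a hair grows, ranged from 9.79 to 42.2 FPKM in MZ libraries, median 19.2, and from 4.13 to 38.5 FPKM in EZ libraries, median 16.1. Both the lowest and the highest EZ values of RSL4 came from day 7, replicate 2 and replicate 1. Its difference of -0.51 ± 0.33 did not pass (adjusted p = 0.265, limma), but did without EZ day 7 replicate 1, at -0.81 (adjusted p = 0.0262, with a range over the alternatives from 0.0262 to 0.540).

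RHD2 (AT5G51060), the oxidase, was lower in libraries labelled EZ. It ranged from 29.9 to 66.9 FPKM in MZ, median 34.3, and from 9.68 to 48.2 FPKM in EZ, median 23.5. In 8 of 10 EZ libraries it lay below the lowest MZ library, and the exceptions were EZ day 3 replicate 2 at 31.3 FPKM and EZ day 4 replicate 1 at 48.2 FPKM. The difference was -0.73 ± 0.21 (SE, n = 20, adjusted p = 0.0178, limma), or 1.65-fold lower on the log2(FPKM + 1) scale. It was negative at 5 of 5 ages, from -1.03 to -0.52.

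EXPA7 (AT1G12560) had the largest zone difference of the 10 genes in the analysis as reported. MZ libraries held 16.1 to 147 FPKM, median 95, and EZ libraries 17.7 to 79.7 FPKM, median 35.0. In 7 of 10 MZ libraries it stood above every EZ library, whereas MZ day 7 replicate 2, at 16.1 FPKM, was the lowest of all 20. The difference was -1.06 ± 0.28 (SE, n = 20, adjusted p = 0.0117, limma), or 2.09-fold lower in EZ libraries. EXPA18 (AT1G62980), the other expansin, ranged from 84.9 to 341 FPKM in MZ, median 153, and from 77.8 to 227 FPKM in EZ, median 115. Its ranges overlapped, with 2 MZ libraries above every EZ library and 1 EZ library below every MZ library. Its difference of -0.40 ± 0.24 did not pass (adjusted p = 0.226, limma).

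Of the wall proteins, the chimeric leucine-rich repeat extensin LRX2 (AT1G62440) was lower in EZ libraries. It ranged from 31.4 to 96.4 FPKM in MZ, median 64.9, and from 18.7 to 57.2 FPKM in EZ, median 31.1. In 6 MZ libraries it stood above every EZ library, and in 5 EZ libraries below every MZ library. The difference was -0.88 ± 0.21 (SE, n = 20, adjusted p = 0.00719, limma), or 1.84-fold lower, and negative at 5 of 5 ages. The differences of RSL4, LRX1 and COBL9, not called over the 5 ages, were also negative at 5 of 5, and that of EXPA7 at 4. LRX1 (AT1G12040), which acts together with LRX2 in the hair wall, ranged from 40.4 to 128 FPKM in MZ, median 78.3, and from 26.3 to 93.9 FPKM in EZ, median 52.0. It did not pass, with a difference of -0.57 ± 0.27 (adjusted p = 0.132, limma). COBL9 (AT5G49270), a membrane-anchored protein of the COBRA family needed for tip growth and named SHV2 in the reference, ranged from 16.0 to 101 FPKM in MZ, median 53.7, and from 8.42 to 66.1 FPKM in EZ, median 33.9. Its difference was -0.69 ± 0.34 (adjusted p = 0.144, limma), and without EZ day 4 replicate 1 it was -0.93 (adjusted p = 0.0360, with a range over the alternatives from 0.0360 to 0.293).

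None of the 10 genes separated the labels fully: in 0 of 10 did all 10 EZ libraries lie below all 10 MZ libraries, and the same held for the other direction. Of all genes tested 0.139% lay fully below and 0.927% fully above. The calls of EXPA7, LRX2 and RHD2 were kept in all 31 alternatives, with highest adjusted p-values of 0.0309, 0.0267 and 0.0444. Without the 2 EZ libraries that stood apart, day 6 replicate 2 and day 7 replicate 2, the differences were -0.96, -0.79 and -0.62.

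Ratios of related genes within a library were set side by side for 4 pairs. The pairs were chosen after the values were seen, so no test is given. The log2 ratio of EXPA7 to EXPA18 averaged -1.10 ± 0.76 in MZ and -1.77 ± 0.34 in EZ libraries (SD, n = 10 each), and it ran from -2.33 to -0.23 in MZ and from -2.25 to -1.23 in EZ. The ranges overlapped, and the mean ratio was lower in EZ libraries at 4 of 5 ages. RHD6 over RSL1 averaged 2.85 ± 0.82 in MZ and 2.15 ± 1.11 in EZ libraries, and RSL4 over RSL2 averaged 2.36 ± 0.72 and 1.76 ± 0.88. LRX2 over LRX1 averaged -0.28 ± 0.34 and -0.58 ± 0.61. For each of the 4 pairs, the difference between the means was smaller than the SD within MZ libraries. For each pair other than EXPA7 and EXPA18, it was also smaller than the SD within EZ libraries.

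The zone difference was next taken at each age, where each label has 2 libraries. At day 3, both EZ replicates lay below both MZ replicates for 7 of the 10 genes, against 21.7% of all genes tested. The count was 2 at day 4, 7 at day 5, 6 at day 6 and 1 at day 7, against 16.8%, 19.1%, 16.1% and 6.75% of all genes. In the opposite direction it was 0 at days 3 and 4, 2 at day 5, which were RSL1 and RSL2, 1 at day 6, RSL1, and 0 at day 7. Of all genes 32.6%, 22.2%, 35.2%, 23.4% and 31.5% lay fully above at days 3 to 7. The median difference of the 10 genes was -0.58, -0.52, -0.90, -0.41 and -0.12 at days 3 to 7. No gene of the 10 passed the limma test at a single age, where 2.06% of all genes passed at day 3, 0.0179% at day 4, 0.278% at days 5 and 6 and 0.094% at day 7. At an unadjusted p under 0.05 there were 3 at day 3 (EXPA7, EXPA18 and LRX2), 4 at day 5 (RHD2, EXPA7, LRX2 and COBL9) and 0 at the other ages. Of all genes 20.5%, 10.3%, 18.9%, 15.8% and 13.8% had such a p at days 3 to 7.

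**Figure D3:**
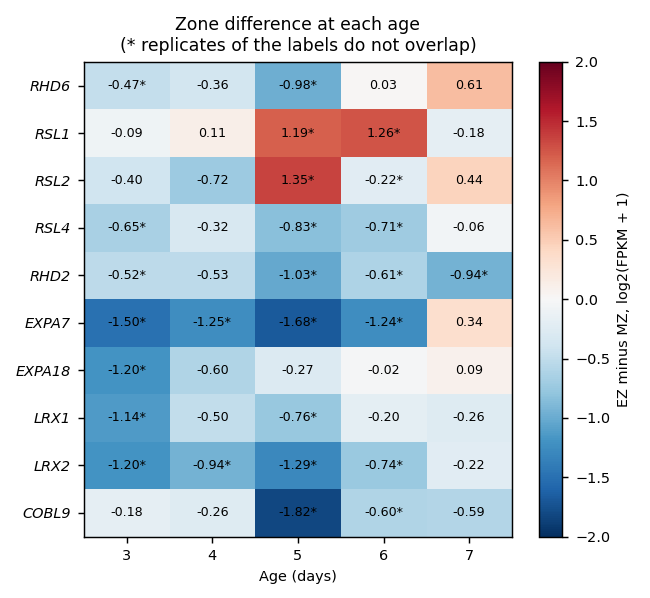
Difference between zone labels (EZ minus MZ, log2(FPKM + 1), colour and printed value) for each gene (rows) at each age in days (columns), from 2 libraries per label. A star marks cells where the 2 replicates of one label lie wholly on 1 side of the other label's. Negative values fill 10, 9, 8, 8 and 6 of the 10 cells at days 3 to 7, and the last column holds 1 star, RHD2.

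At day 3 the MZ libraries of EXPA7 held 39.7 and 89.8 FPKM and the EZ libraries 23.8 and 17.7 FPKM. At day 5 they held 113 and 147 FPKM against 40.2 and 39.3 FPKM. At day 7 the MZ libraries held 62.5 and 16.1 FPKM and the EZ libraries 73.0 and 22.5 FPKM. The labels were thus apart at days 3 to 6, by -1.50, -1.25, -1.68 and -1.24, and overlapped at day 7, at 0.34. The change of the zone difference across ages did not pass (adjusted p = 1.0, limma). LRX2 held 46.4 and 74.6 FPKM at day 3 in MZ and 24.9 and 25.2 FPKM in EZ libraries, and 75.5 and 31.4 FPKM against 57.2 and 30.4 FPKM at day 7. RHD2 kept its side at day 7, with a mean of 30.6 FPKM in MZ against 24.2 and 9.68 FPKM in the EZ libraries.

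Within a label, none of the 10 genes passed a test for change with age, where few of all genes did. Linear slopes per day ran from -0.31 to 0.28 in MZ and from -0.19 to 0.19 in EZ libraries on the log2 scale, and 0 of 10 passed in either label or in the test of the difference between slopes. Over all genes 0.918% passed for the slope in MZ, 0.0134% in EZ and 0.00895% for the difference between slopes. The slope nearest to a call was that of RHD6 in MZ, -0.31 ± 0.15 per day (adjusted p = 0.419, limma). That slope was -0.06 without MZ day 7 replicate 1, the MZ library lowest in RHD6, and -0.06 without day 7. Tests of any difference among ages also called 0 of 10 in each label, where 0.412% of all genes passed in MZ and 0.0537% in EZ, and tests of any change of the zone difference called 0 against 0.0448%. At an unadjusted p under 0.05, only EXPA7 would pass among these limma tests, and only for any age difference in MZ. Its group means in MZ were 64.8, 116, 130, 90.5 and 39.3 FPKM from day 3 to day 7.

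Ordered by group mean, the 10 groups gave no steps larger than the replicates for most neighbours. EXPA7 ran from MZ day 5 at 130 FPKM down to EZ day 3 at 20.7 FPKM, with MZ day 5, 4, 6 and 3 in the top 4 places and overlapping replicates in 7 of 9 neighbouring pairs. LRX2 ran from MZ day 5 at 78.8 FPKM to EZ day 3 at 25.1 FPKM, and LRX1 from MZ day 5 at 96.0 to EZ day 3 at 32 FPKM. For both, the 5 MZ groups held the top 5 places, and 8 of 9 neighbours overlapped. EXPA18 ran from MZ day 4 at 249 FPKM to EZ day 3 at 82.9 FPKM, and RHD2 from MZ day 4 at 49.5 FPKM to EZ day 7 at 17.0 FPKM, again with 8 of 9 neighbours overlapping. RHD6 ran from MZ day 3 at 30.7 FPKM to MZ day 7 at 12.4 FPKM, with 8 of 9 overlapping. RSL4 and COBL9 both peaked in MZ day 6, at 37.0 and 84.9 FPKM, with lowest means of 14.6 FPKM in MZ day 7 and 22.4 FPKM in EZ day 5. All 9 neighbours of each overlapped. RSL1 and RSL2 both had their highest mean in EZ day 5, at 6.59 and 8.41 FPKM, and their lowest in MZ day 6 at 1.13 FPKM and EZ day 4 at 2.23 FPKM, with 8 of 9 neighbours overlapping in each.

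In 3 of the 10 groups the replicates differed in the same direction for all 10 genes. In MZ day 3 and in MZ day 5, all 10 genes were higher in replicate 2, with median differences of 1.06 and 0.47 on the log2 scale, and in MZ day 6 all 10 were higher in replicate 1, by 0.44. Elsewhere the genes were more divided. In EZ day 7, 9 of 10 were higher in replicate 1 by a median of 1.24, and in EZ day 4 it was 8 of 10, by 1.15. Replicate 1 was the higher for 7 of 10 in MZ day 7, 6 in EZ day 5, 5 in EZ day 3, 4 in MZ day 4 and 3 in EZ day 6. For all genes the median shift between replicates of MZ days 3, 5 and 6 and EZ days 4 and 7 was between 0 and 0.15 in size. RSL4 in EZ day 7 stood at 38.5 FPKM in replicate 1 and 4.13 FPKM in replicate 2. MZ day 7 replicate 2 was the lowest MZ library for 5 genes, RSL4, EXPA7, EXPA18, LRX1 and LRX2. EZ day 7 replicate 1 was the highest EZ library for 4, RSL4, EXPA18, LRX1 and LRX2.

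Several of the genes, from RSL4 to LRX2 in the order of the plot of pairs, varied together from library to library. RSL1 stood apart, and so did RHD6 within MZ. Over the 45 pairs of genes the median Pearson's r was 0.42 across the 20 libraries, 0.38 within MZ and 0.34 within EZ. After the mean of each group was taken away the median was 0.58. These values are descriptions: all genes share the libraries, their depth and their mix of cells, and no test was made. The closest pair was EXPA18 and LRX1, with r = 0.89 over 20 libraries, 0.86 within MZ and 0.90 within EZ. EXPA7 and LRX2 followed at 0.85, with 0.91 once group means were removed. RSL4 was related to the mean of the other 9 genes with r = 0.78, EXPA7 with 0.79, LRX2 with 0.80 and RHD2 with 0.72. RSL1 was at -0.25 and RHD6 at 0.31, with 0.09 for RHD6 within MZ and 0.55 within EZ. With group means removed, RHD6 had r of -0.27 to -0.01 with RSL2, EXPA7, EXPA18, LRX1 and LRX2. With RSL1, RSL4, RHD2 and COBL9 it had r of 0.26 to 0.72. RHD6 and COBL9 had r = 0.88 within EZ and 0.23 within MZ, over 10 libraries each.

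**Figure D4:**
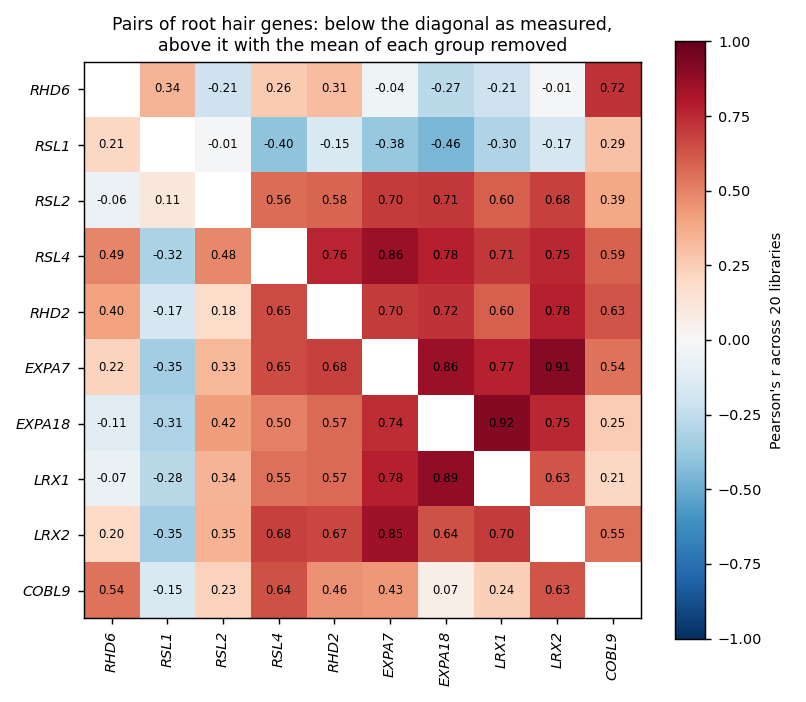
Pearson's r between pairs of the 10 genes in log2(FPKM + 1) across 20 libraries (colour and printed value), below the diagonal as measured and above it after the mean of each of the 10 groups was removed. The block from RSL4 to LRX2 is high on both sides of the diagonal, and the row of RSL1 is mostly negative.

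Genes outside the root hair lists with the most similar pattern were ranked by Pearson's r to the mean standardised level of the 10 genes, over 20 libraries, among 12401 genes whose mean was no lower than 5 FPKM. The median r of those genes was 0.04, and 42 exceeded 0.8. SP1L4 (AT5G15600), a SPIRAL1-like gene, came first with r = 0.94, 0.97 within MZ and 0.87 within EZ. It was followed by AT3G28550, annotated as a proline-rich extensin-like protein, at 0.89, by the reticulon gene AT2G46170 at 0.89 and by the kinase gene ATMPK8 (AT1G18150) at 0.88. AT3G61560, another reticulon gene, had 0.88. AT2G38740, AT3G09925 and AT2G01540, annotated as a dehalogenase-like hydrolase, a pollen Ole e 1 and extensin protein and a calcium-dependent lipid-binding protein, each had 0.86. For single genes, LRX1 was most like the pectin methylesterase inhibitor family gene AT5G04960 at 0.94, and LRX2 most like AT1G14170 at 0.94. EXPA18 was closest to AT3G54040 at 0.93, COBL9 to AT2G45750 at 0.92, EXPA7 to CBL3 at 0.90, RHD6 to HYD1 at 0.87, RSL4 to AT5G56610 at 0.86 and RHD2 to AT3G61560 at 0.82. RSL2 and RSL1 had no gene as close, with 0.74 to SSR16 and 0.68 to GATA15.

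A wider list of 53 other genes of hair fate and growth placed the 10 in their pathway. Of these 52 have a row in the table, RHD4 being the one without, and 50 passed the filter, which left out RBOHH and RBOHJ. In the comparison of zone labels 5 were lower and 3 higher in EZ libraries, 16.0% of the 50 beside 28.4% of all genes tested. The median difference was -0.29 beside 0.15, and 35 of 50 estimates were negative. Under quantile normalisation 14 passed, beside 25.1% of all genes, and under median-of-ratios scaling 20, beside 29.6%. For the slope with age 0 of 50 passed in either label.

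Among 10 genes of epidermal fate, 2 were higher and none lower in EZ libraries, and the 2 of 10 called higher stand beside 20.6% of all genes. EGL3, a transcription factor of the complex that specifies hairless cells, was found at 0.617 to 4.24 FPKM in MZ and 1.57 to 15.5 FPKM in EZ libraries, a difference of 1.33 ± 0.30 (adjusted p = 0.00440, limma). SCM, a receptor-like kinase through which epidermal cells read their position, differed by 1.26 ± 0.37 (adjusted p = 0.0207, limma), a call lost with a pseudocount of 0.1 (2.11) and with quantile normalisation (0.93). CPC, a mobile repressor that promotes hair fate and the most abundant of the group, differed by -0.36 ± 0.21 and did not pass (adjusted p = 0.208). None of 8 further root hair transcription factors passed. LRL1, the most abundant of them, held 22.6 to 126 FPKM in MZ and 21.3 to 106 FPKM in EZ libraries.

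In the group of polarity and phosphoinositide genes, 2 of 8 tested were lower and 1 was higher. Of all genes tested, 7.77% were lower and 20.6% higher. PCaP2, a phosphoinositide- and microtubule-binding protein, ranged from 143 to 349 FPKM in MZ and from 55.4 to 223 FPKM in EZ libraries, a difference of -0.96 ± 0.21 (adjusted p = 0.00389, limma). ROP2, a small GTPase that marks the site of the hair, was lower by -0.71 ± 0.20 (adjusted p = 0.0157), whereas its relative ROP6 was higher by 0.90 ± 0.28 (adjusted p = 0.0252). The call of ROP2 was lost without EZ day 6 replicate 2 and EZ day 7 replicate 2 (-0.55), and that of ROP6 in 9 of 20 cases with 1 library left out, with adjusted p-values from 0.0112 to 0.0606. The call of ROP6 was also lost with quantile normalisation (0.58) and without day 7 (0.79). None of 8 tested receptors, calcium channels and related genes passed, and OXI1, a kinase activated by reactive oxygen and the most abundant, differed by -0.43 ± 0.23.

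Of 11 wall genes 2 were lower, beside 7.77% of all genes tested. AT1G30870, annotated as a peroxidase, ranged from 83.0 to 360 FPKM in MZ and from 71.1 to 201 FPKM in EZ libraries, a difference of -1.09 ± 0.21 (adjusted p = 0.00162, limma). CSLD2, a cellulose synthase-like protein of hairs, was lower by -0.60 ± 0.21 (adjusted p = 0.0444), a call lost in 16 of 20 cases with 1 library left out. PRP3, a proline-rich wall protein of hairs and the most abundant of the group, held 150 to 510 FPKM in MZ and 148 to 448 FPKM in EZ libraries and differed by 0.06 ± 0.29. Among 5 genes of the cytoskeleton and membrane traffic, ACT2 was lower. This actin of vegetative tissue ranged from 711 to 2690 FPKM in MZ and from 449 to 980 FPKM in EZ libraries, a difference of -1.28 ± 0.18 (adjusted p = 0.000294, limma).

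**Figure D5:**
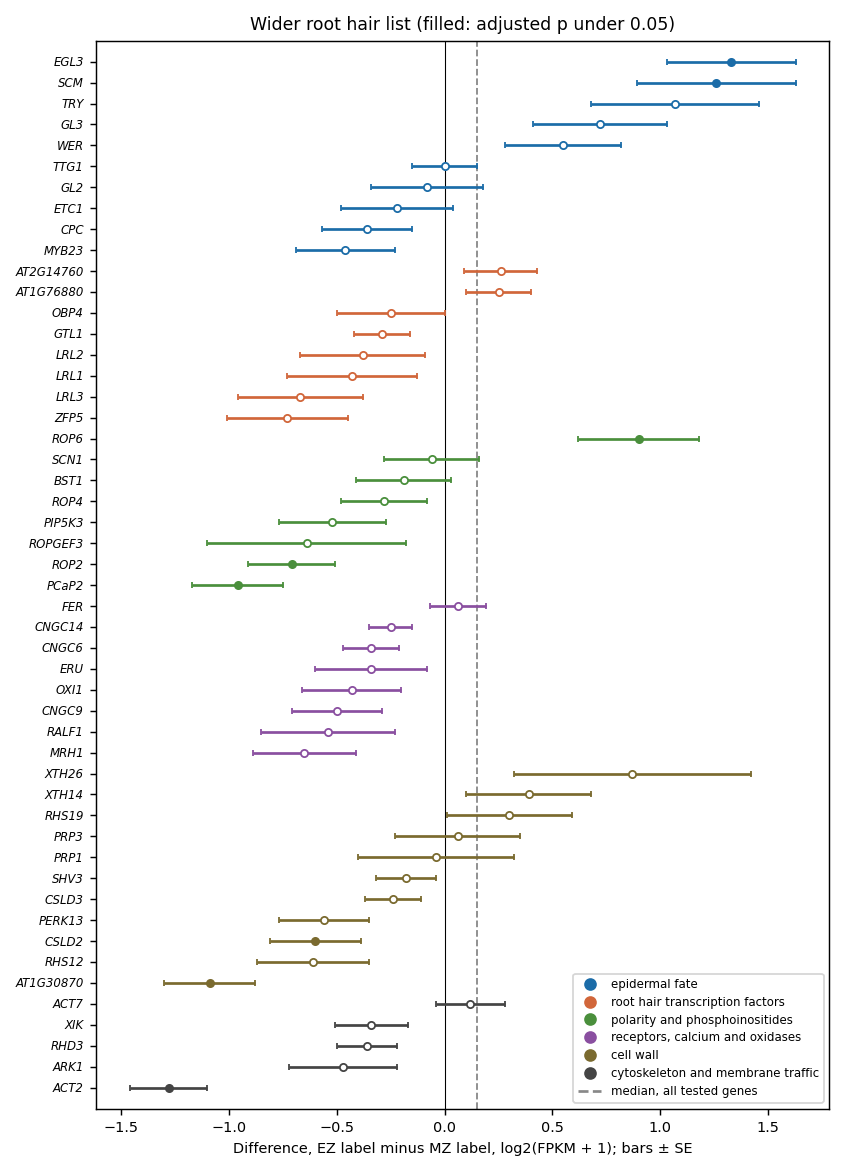
Difference between zone labels (EZ minus MZ, log2(FPKM + 1), horizontal axis) for the 50 tested genes of the wider root hair list, grouped by role (colour), with bars of ± 1 SE. Filled points have an adjusted p under 0.05, the dashed line is the median of all tested genes, 0.15, and most points of every role but epidermal fate lie to its left.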

How the data were processed

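RNA of sorted, GFP-negative root protoplasts was sequenced in 20 libraries, with 2 biological replicates for each of 2 zone labels and 5 ages; cDNA was amplified with a low input kit, per the labels' protocols. The deposited values are FPKM made by the authors. The submitters' processing notes name the tools Cufflinks 2.1.1 and TopHat2 2.0.13 and the genome build TAIR10, and settings, strand use and scaling between libraries are not given in the sources used here. Amplification of small RNA amounts can widen the spread of scarce transcripts.

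Values were taken as log2(FPKM + 1), which understates fold changes of low genes. The fit covered genes that reached 1 FPKM in 2 or more libraries and used limma 3.58.1 (R 4.3.3), a mean per group and a variance trend. All 20 libraries shared 1 estimate of spread with 10 residual degrees of freedom. Contrasts were the zone difference over the 5 ages and at each age, the slope per day and any age difference within a label, and the change of the zone difference with age. All tests are two-sided, and p-values were adjusted by Benjamini-Hochberg across every gene tested, with a threshold of 0.05. The fit was tested on simulated data whose noise was independent between genes and libraries. Shifts between replicates that are shared by many genes were not simulated.

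Depth was estimated as the step between low FPKM values of transcripts of at least 2000 bp; 60.3% to 84.5% of such values were whole multiples to within 0.1, so it is approximate, and no count test was made. Samples were not treated as paired by replicate number. Over 45 pairs of groups, the differences between replicates correlated with a median r of 0.02, from -0.21 to 0.35. This pools all pairs of groups, so it cannot decide whether MZ and EZ libraries of the same age and number are paired. Identifiers matched the TAIR10.1 annotation for 32489 of 33201 genes. Coordinates and promoter sequences come from TAIR10.1 with its own RefSeq annotation, since the table holds none. Some usual names are absent from that annotation, and such genes are given by identifier.

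The 10 genes, the wider list and the markers were chosen with earlier results of these data known. Of the wider list, every gene called between zone labels and the most abundant gene of each role is named. Of similar genes, the 8 highest r to the mean of the 10 and the highest for each of the 10 are named, without genes that share 50% or more of their 32-base words with others. Alternatives were other pseudocounts, filters, scalings and weights, a robust prior, a replicate block, the fit without day 7, and each library left out in turn.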

Additional observations from a re-analysis of the deposited data

Results flagged for a closer look

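RHD6 was at 3.06 FPKM in MZ day 7 replicate 1, far below the other 9 MZ libraries, which held 15.0 to 34.5 FPKM. On the log2(FPKM + 1) scale its gap to the next library was 0.633 of the range of the 10, above the 95% critical value of Dixon's test. In FPKM the gap was 0.38 of the range, which is below that value. The test was made for the 10 genes in each label, 20 sets in all, and chance alone passes about 1 in 20. In the same library RSL1, the closest relative of RHD6 among the 10, was at 0.454 FPKM, while EXPA18 at 224 FPKM and LRX1 at 105 FPKM were above their MZ medians. RHD6 in MZ day 7 replicate 2 was at 21.7 FPKM.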

How the results depend on the processing

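EXPA7, LRX2 and RHD2 stayed called under every alternative, and the count of called root hair genes was 3 or 4. Age tests called 0 of the 10 under each alternative, with limma. Over all genes the zone comparison called 6334 (8913 at an unadjusted p under 0.05), between 5222 and 6628 with 1 library left out. The share of higher calls was 72.6%, but 49.9% with quantile normalisation and 58.2% with median-of-ratios scaling. The count of the wider list was 8, and 14 and 20 under those scalings, with 13 and 17 of them lower. Of all genes tested, 12.6% and 12.4% were called lower under those scalings. The count of the wider list ran from 6 to 16 with 1 library left out. It was 16 without EZ day 4 replicate 1 and 13 without EZ day 7 replicate 1. With the replicate number as a block, 6636 genes and 3 of the 10 were called; the block changed no call of the 10.

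None of the values that changed sign was called. The zone difference of RSL2 became -0.25 with quantile normalisation and -0.02 with median-of-ratios scaling. It ran from -0.23 to 0.41 with 1 library left out, and that of RHD6 from -0.48 to 0.01. Without day 7, slopes became positive in EZ for RHD6 (0.04), RSL1 (0.10) and RSL4 (0.10), and in MZ for RSL2 (0.07), RSL4 (0.17), EXPA7 (0.19) and LRX2 (0.11). The EZ slope of RSL4 was 0.01 with a pseudocount of 5 and after quantile normalisation, and the MZ slope of LRX2 was 0.03 under both scalings. Without EZ day 6 replicate 2 and EZ day 7 replicate 2, chosen after seeing the data, EZ slopes were 0.07 for RHD6 and 0.23 for RSL4. With 1 library left out, EZ slopes ran from -0.19 to 0.07 (RHD6), -0.36 to 0.05 (RSL1), -0.31 to 0.28 (RSL4), -0.01 to 0.32 (EXPA7) and -0.02 to 0.29 (LRX1). MZ slopes ran from -0.39 to 0.24 (RSL2), -0.21 to 0.01 (RSL4), -0.20 to 0.07 (LRX1) and -0.15 to 0.10 (LRX2). The causes were not tested.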

Other observations

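The actins of the wider list differed in their relation to each other, a pair chosen after its values were seen and so given without a test. ACT2 over ACT7, both actins of vegetative tissue, was 3.12 to 6.15 in MZ libraries, with a median of 4.03, and 1.11 to 2.59 in EZ libraries, with a median of 1.55. No EZ library reached the lowest MZ library. ACT7 held 186 to 614 FPKM in MZ and 249 to 526 FPKM in EZ libraries, with a zone difference of 0.12 ± 0.16 (adjusted p = 0.624, limma).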
